A study of Danio rerio with 12 samples.

Results

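The comparison of 100 with 50 µg/L triclosan was described through the fragments that the authors' deposited table lists for this pair of exposures. Triclosan is an antibacterial agent of soaps and other consumer products. AB strain zebrafish, each in its own well, were exposed to 100 or 50 µg/L triclosan or served as control, and solutions were partly renewed daily. Each library was made from DNA of a pool of 24 whole larvae at 7 days post-fertilisation (dpf), and 4 libraries were made for each of the 3 groups. All 99 entries of the table for 100 against 50 µg/L were taken, out of 171 entries for 153 distinct fragments in the series' 3 tables, of which 55 belong to 50 µg/L against control and 17 to 100 µg/L against control. The table gives 1 level per group and no value per library, and whether the pools of a group stem from different clutches is not stated, so p values measure only the spread between these pools. A level averages all cells of whole larvae, so a change in the mix of cells and a change within cells cannot be told apart.

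DNA methylation in vertebrates lies mainly on cytosines of CpG pairs, and most CpGs outside CpG islands are methylated. In reduced representation bisulfite sequencing the enzyme MspI cuts at CCGG, short fragments are kept, and bisulfite converts unmethylated cytosines so that methylated ones can be counted. Methylation at a gene's start is commonly low where the gene is active, while methylation within a gene body has no single meaning for expression. Each fragment is named below by the gene the authors' deposited table assigns to it, which for many fragments lies far away.

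Of the 99 fragments, 64 had a higher level at 100 than at 50 µg/L and 35 a lower one, so 64.6% of the listed fragments were higher. Among the 23 differences of at least 20 points the majority was the other way, with 10 higher and 13 lower, so 43.5% were higher. The sizes of the differences ran from 15 to 39.3 percentage points, with a median of 17.2. The authors' deposited table has a column with a threshold that grows with the rank of p. It equals the rank times 0.05 over 184 tests, or times 0.1 over 368 tests, and which was meant is not given in the sources used here. The p value lay at or under this threshold for 33 fragments, which is 33.3% of those listed, with 18 higher and 15 lower at 100 µg/L. "Rose" and "fell" are used below only for these 33 and mean higher or lower at 100 than at 50 µg/L. The last of them was znf511, with p = 0.00871 against a threshold of 0.00897, per the authors' deposited table, and the next in rank was CABZ01114082.1, with p = 0.0103 against 0.00924. No listed difference is under 15 points, so the list was chosen on these libraries, and the differences and p values describe the list and do not test it. Standard errors (SE) are those implied by the authors' F statistic, and read depth is unknown.

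**Figure D1:**
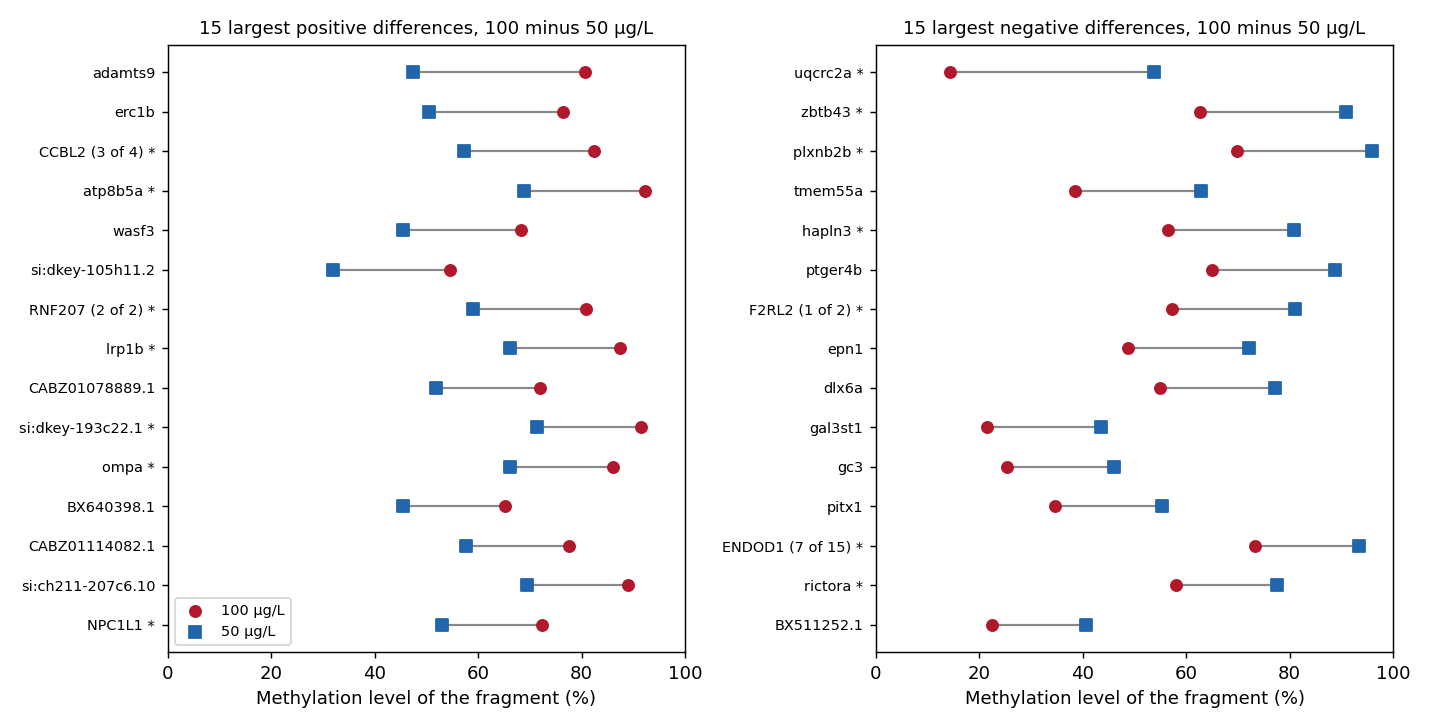
Methylation level of a fragment in percent at 100 µg/L (circles) and 50 µg/L (squares) for the 15 largest positive and the 15 largest negative differences, 1 row per fragment named by its assigned gene. An asterisk marks a fragment that passed the threshold per rank. The uqcrc2a fragment has the widest gap, with 14.4% at 100 µg/L and 53.7% at 50 µg/L.

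Genes of mitochondria and energy supply were assigned 5 fragments, of which 4 were higher and 1 lower at 100 µg/L, and 3 of the 5 passed the threshold. Over all 99 listed fragments, 64.6% were higher and 33.3% passed, and these shares are the background for the count of each list that follows. The largest difference of the whole list was in an intron of uqcrc2a, whose product is a core protein of complex III of the respiratory chain (build Zv9, chromosome 3, 59042926 to 59043000). In the authors' deposited table it fell to 14.4% at 100 µg/L, against 53.7% at 50 µg/L, with p = 0.00166. The difference was -39.3 points with an SE of 6.40 points, from 4 libraries at 100 and 3 at 50 µg/L. The gene of another complex III subunit, the iron-sulfur protein gene uqcrfs1, was assigned a fragment 147 kb away with the opposite sign. Its level was 81.1% at 100 and 63.9% at 50 µg/L, per the authors' deposited table, above the threshold. A fragment 71.3 kb from CCBL2 (3 of 4), a kynurenine aminotransferase gene, rose to 82.3% at 100 µg/L, against 57.2% at 50 µg/L (SE 3.69 points), per the authors' deposited table. One 249 kb from dnajc19, which encodes a co-chaperone of mitochondrial protein import, rose to 31.4%, against 15.9% at 50 µg/L (SE 3.62 points), per the authors' deposited table. The exonic fragment of slc22a5, the carnitine transporter gene, had 48.9% at 100 and 30.6% at 50 µg/L, per the authors' deposited table, with p above the threshold.

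Further genes of nutrient sensing and lipid handling lay outside that list and were picked out after their values were seen. An intronic fragment of rictora, whose product is a subunit of the kinase complex mTORC2, lay 1.42 kb from an end of the gene. It fell to 58.0% at 100 µg/L, against 77.5% at 50 µg/L (SE 3.97 points), per the authors' deposited table. The exonic fragment of FNIP2, a folliculin-interacting protein gene, was 17.2 points lower (SE 5.65), and one 199 kb from prkaa2, the gene of a catalytic subunit of the energy sensor AMPK, was 16 points higher (SE 4.63), both above the threshold. A fragment 62.2 kb from NPC1L1, a gene of intestinal cholesterol uptake, rose to 72.3% at 100 µg/L, against 53.1% at 50 µg/L (SE 2.77 points), per the authors' deposited table. A fragment 1.81 kb from the sterol carrier gene scp2a was 15.2 points higher (SE 4.63), above the threshold. In an intron of lrp1b, a gene of the LDL receptor family and the only member of the lipid metabolism list, the level rose to 87.4%, against 66.1% at 50 µg/L (SE 2.76 points), per the authors' deposited table.

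On the list for adhesion and matrix were 5 fragments, 3 higher and 2 lower, and 2 of them passed the threshold, beside 64.6% higher and 33.3% passing over the whole list. The list leaves out some genes of this kind, negr1 with a higher fragment among them, so its split depends on which genes it holds. The exonic fragment of hapln3, whose protein links hyaluronan to proteoglycans, spans 46 bp with 9 CpGs (Zv9, chromosome 25, 19692813 to 19692858). It fell to 56.5% at 100 µg/L, against 80.9% at 50 µg/L (SE 3.14 points, p = 0.000573), per the authors' deposited table. A fragment 9.02 kb from the collagen gene COL28A1 (4 of 4) rose to 70.9%, against 52.8% at 50 µg/L (SE 4.30 points), per the authors' deposited table. Within an intron, the fragment of adamts9, the gene of a secreted metalloprotease of the ADAMTS family, had the largest positive difference, 33.3 points. Its SE of 9.77 was also the largest of the list. Its levels were 80.6% at 100 and 47.4% at 50 µg/L, per the authors' deposited table, from 3 libraries in each group, and its p of 0.0272 lay above the threshold. Fragments far from the cadherin genes CDH12 (1 of 2) and CDHR2 (2 of 2), at 446 and 61.4 kb, were 15.3 points higher (SE 4.67) and 17 points lower (SE 5.90), both above the threshold. KRT78, a keratin gene outside the list, had an exonic fragment 0.0870 kb from a gene end that fell to 65.7%, against 80.9% at 50 µg/L (SE 2.24 points), per the authors' deposited table.

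Of the 5 fragments on the synapse and axon list, 3 were higher and 2 lower. Both intronic fragments of erc1b, the gene of an active zone scaffold protein, were higher at 100 µg/L although they lie 62.5 kb apart in a gene of 259 kb. In the authors' deposited table one (Zv9, chromosome 4, 7729367 to 7729441) rose to 67.2%, against 49.0% at 50 µg/L (SE 3.52 points). The other (7791951 to 7792084) had 76.3% at 100 and 50.4% at 50 µg/L, per the authors' deposited table, with a wider SE of 9.25 points and p above the threshold. The fragment assigned to plxnb2b, whose product is a plexin that binds semaphorins, lay 18.7 kb away and fell to 69.9%, against 95.9% at 50 µg/L (SE 4.72 points), per the authors' deposited table. The exonic fragment of neurod6a, a neuronal transcription factor gene, fell to 9.86%, the lowest level of the list, against 25.1% at 50 µg/L (SE 2.80 points, 4 libraries each), per the authors' deposited table. The fragment assigned to the proneural gene neurog1 lay 595 kb from it and had 49.0% at 100 and 33.3% at 50 µg/L, per the authors' deposited table.

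Other genes of the nervous and sensory system were picked out after their values were seen, 5 with higher and 2 with lower fragments. Over all 99 listed fragments 64.6% were higher, and the split of 5 to 2 depends on which genes were picked. A fragment assigned to ompa, an olfactory marker protein gene, lay 526 kb away and rose to 86.0%, against 66.2% at 50 µg/L (SE 3.78 points), per the authors' deposited table. Intronic fragments of negr1, an adhesion molecule of neurons, and gfra2b, a receptor gene for glial-derived growth factors, were each 15.4 points higher (SE 4.78 and 5.35). An intronic fragment of necab2, a neuronal calcium-binding protein gene, had 35.6% at 100 and 18.1% at 50 µg/L, per the authors' deposited table, with the largest p of the list, 0.0530. An intronic one of dag1, the dystroglycan gene, was 16.9 points higher (SE 5.89). Lower levels were seen on exons of gc3, a retinal guanylate cyclase gene, with 25.3% at 100 and 46.1% at 50 µg/L, and of gal3st1, which makes the myelin lipid sulfatide, with 21.5% and 43.6%, per the authors' deposited table. None of these except ompa passed the threshold.

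Transcription regulators were the largest list, with 11 fragments, 6 higher and 5 lower, of which 3 passed the threshold, beside 64.6% higher and 33.3% passing over all listed fragments. A fragment 36 kb from zbtb43, a zinc finger repressor gene, lay 2.55 kb from a CpG island (Zv9, chromosome 5, 4939359 to 4939467). It fell to 62.7%, against 90.9% at 50 µg/L (SE 4.95 points, p = 0.00234), per the authors' deposited table. The fragment 0.736 kb from znf511 rose to 86.7%, against 70.7% at 50 µg/L (SE 3.83 points), per the authors' deposited table, and neurod6a is the third that passed. The other members were above the threshold. The fragments of dlx6a (35.6 kb away), sall1a, a zinc finger gene (339.7 kb) and lhx2b (102 kb) had differences of -22.3 (SE 8.24), -17 (SE 5.16) and -16.2 points (SE 5.39). That 27.6 kb from nkx3.2, a gene of the jaw joint, was 15 points higher (SE 4.11), and in zfhx4 an intronic fragment was higher by 18.7 points (SE 5.91). In an intron of the GATA cofactor gene zfpm2a and 153 kb from GATAD2B, a chromatin remodelling gene, differences were 16.3 (SE 6.21) and 17.7 points (SE 5.54). The list leaves out some transcription factor genes with lower fragments, pitx1 and rxrbb among them, so its split of 6 to 5 depends on which genes it holds. The fragment 26.9 kb from pitx1, a homeobox gene of pituitary and hindlimb, had 34.6% at 100 and 55.4% at 50 µg/L, per the authors' deposited table, above the threshold. A fragment 121 kb from rxrbb, a retinoid X receptor gene, fell to 73.7%, against 89.3% at 50 µg/L (SE 3.13 points), per the authors' deposited table. In fhl3b, a LIM domain gene, an intronic fragment fell to 55.3%, against 70.3% at 50 µg/L (SE 2.75 points), and one 90.8 kb from the RNA-binding zinc finger gene zfr to 47.4%, against 62.4% (SE 1.52 points, the smallest of the list), per the authors' deposited table.

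All 3 fragments on the channel and flippase list were higher at 100 µg/L, and 2 rose. The 2 that rose, those of atp8b5a and TRPC7 (3 of 4), stood at 92.3% and 91.6% at 100 µg/L. At such levels the minimum difference of 15 points allows only a level above that at 50 µg/L. The shared direction of these 2 is therefore no result about channel or flippase genes. The intronic fragment of atp8b5a, whose product moves phospholipids between membrane leaflets, had the smallest p of the list, 0.000114 (Zv9, chromosome 5, 21062421 to 21062507). It rose to 92.3%, against 68.9% at 50 µg/L (SE 2.15 points), per the authors' deposited table. Of the cation channel copies, the fragment 10.1 kb from TRPC7 (3 of 4) rose to 91.6%, against 74.8% at 50 µg/L (SE 2.96 points), per the authors' deposited table. That 154 kb from TRPC7 (1 of 4) was 15.5 points higher with a 95% interval that reaches from -0.128 to 31 points. A fragment 93.0 kb from RNF207 (2 of 2), a ubiquitin ligase gene that acts on cardiac potassium channels in humans, rose to 80.8%, against 59.0% at 50 µg/L (SE 4.09 points), per the authors' deposited table. One 15.2 kb from rangrf, whose human counterpart helps bring a cardiac sodium channel to the membrane, fell to 74.3%, against 91.6% at 50 µg/L (SE 3.85 points), per the authors' deposited table. Both fragments on the chaperone list rose, dnajc19 and that 115 kb from the small heat shock gene hspb1, which reached 52.6%, against 37.2% at 50 µg/L (SE 3.46 points), per the authors' deposited table. With only these 2 fragments, the shared direction depends on which genes the chaperone list holds.

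Among receptors and signalling genes, a fragment 12.0 kb from F2RL2 (1 of 2), which encodes a receptor cleaved by proteases, fell to 57.3%, against 81.0% at 50 µg/L (SE 2.72 points, p = 0.000328), per the authors' deposited table. Both members of the Wnt and BMP list were higher. An intronic fragment of smad6b, whose product is an inhibitory Smad of the BMP pathway, rose to 58.2%, against 42.9% at 50 µg/L (SE 2.91 points), per the authors' deposited table, and one 28.9 kb from fzd4, which encodes a receptor for Wnt ligands, was 17.9 points higher (SE 5.50), above the threshold. A fragment 51.1 kb from spred1, an inhibitor of Ras signalling, rose to 30.1%, against 12.7% at 50 µg/L (SE 3.35 points, 4 libraries each), per the authors' deposited table. Both members of the immune list were lower and above the threshold, the phagocyte oxidase gene cybb by 17.2 points (SE 4.85) and the prostaglandin E receptor gene ptger4b by 23.8 (SE 6.14). They stood at 95.7% and 88.8% at 50 µg/L, where the minimum difference of 15 points allows only a lower level. Their shared direction is therefore no result about immune genes. Outside that list, a fragment 22.2 kb from SIGLEC15, an immune lectin gene, was 16.2 points higher (SE 4.08), also above the threshold. Both members of the kinase list, PRKD1 and prkaa2, were higher and above the threshold, by 17.7 (SE 4.47) and 16 points (SE 4.63). Of 3 fragments on the actin and cytoskeleton list, the intronic one of nckipsd fell to 75.7%, against 93.4% at 50 µg/L (SE 3.05 points), per the authors' deposited table. Those in wasf3, an actin regulator gene (exon), and ANK1 (1 of 2), an ankyrin gene (intron), were 22.9 (SE 7.27) and 17.6 points higher (SE 6.03), above the threshold. Near genes of membrane traffic and phosphoinositides, the fragments 63.2 kb from the endocytic adaptor gene epn1 and 145 kb from tmem55a were 23.4 (SE 8.30) and 24.6 points lower (SE 7.30), above the threshold. A fragment 26.7 kb from ENDOD1 (7 of 15), a nuclease domain gene, fell to 73.3%, against 93.3% at 50 µg/L (SE 2.20 points), per the authors' deposited table.

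Among genes without a described role here, a fragment 6.87 kb from si:dkey-193c22.1 rose to 91.4%, against 71.3% at 50 µg/L (SE 3.13 points), and one 175 kb from si:dkeyp-104h9.5 to 75.9%, against 60.6% (SE 3.27 points), per the authors' deposited table. Above the threshold, the fragment 61.1 kb from si:dkey-105h11.2 had 54.6% at 100 and 32.0% at 50 µg/L (SE 6.71 points), and that 13.8 kb from CABZ01078889.1 had 71.9% at 100 and 51.8% at 50 µg/L (SE 6.87 points), per the authors' deposited table. The one 10.6 kb from BX511252.1 had 22.4% at 100 and 40.7% at 50 µg/L (SE 4.84 points), and that 3.39 kb from BX640398.1 had 65.2% at 100 and 45.5% at 50 µg/L (SE 6.65 points), per the authors' deposited table. Exonic fragments of CR339044.2 and C1H11orf73 had differences of -18.3 (SE 4.8) and -16.1 points (SE 5.09), above the threshold. The 66 fragments above the threshold, taken as a whole, were 46 higher and 20 lower, with differences of up to 33.3 points in size and a median SE of 5.43 points.

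The muscle list held 1 fragment, an intronic one of setd3, also 1 of 2 on the chromatin list beside GATAD2B, at 15.5 points higher (SE 5.39) and above the threshold. The xenobiotic metabolism list and the thyroid and steroid list held 0 fragments. The fragments that were assayed are not known here, so the 0 cannot be set against a background. In all, 39 of the 99 fragments were on at least 1 of the 15 lists, 27 higher and 12 lower, and 16 of the 39 passed the threshold. The share higher was 69.2%, beside 64.6% in the whole list, where 33 of 99 fragments, or 33.3%, passed.

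**Figure D2:**
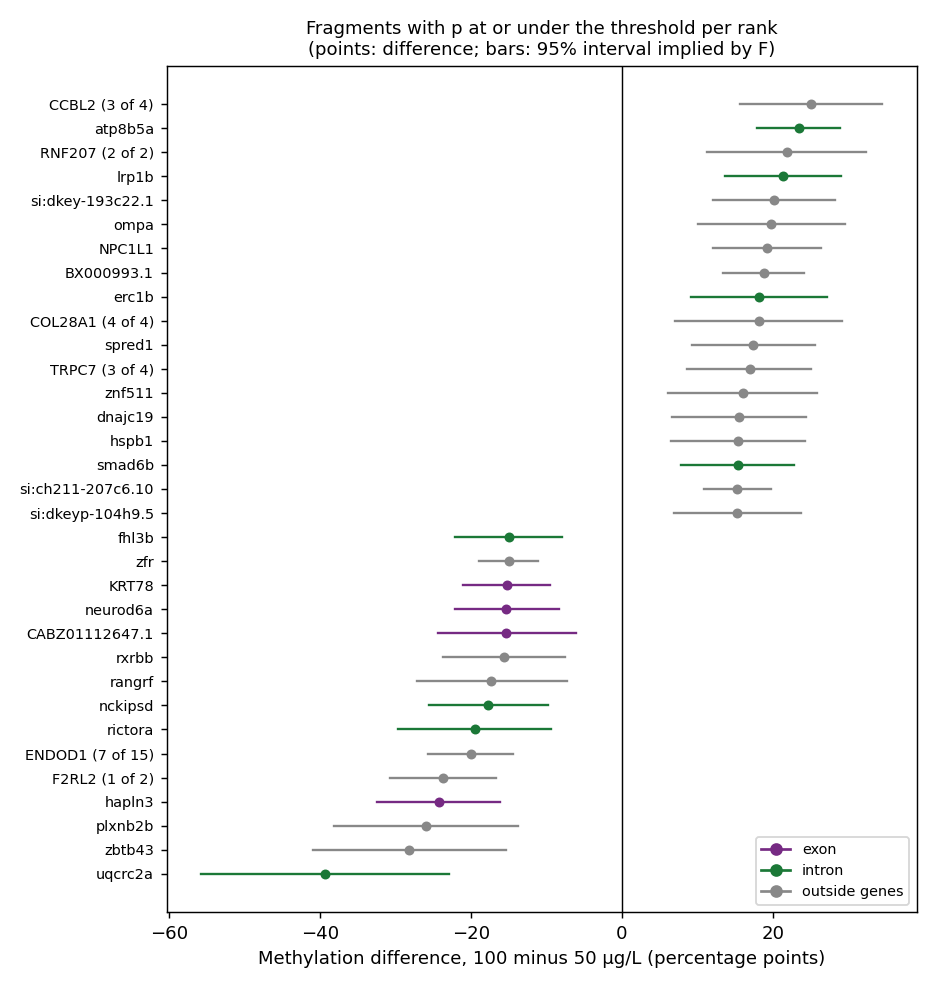
Methylation difference, 100 minus 50 µg/L, in percentage points for the 33 fragments that passed the threshold per rank. Points are differences, bars are 95% intervals implied by F, and colours mark exon, intron or outside genes. The 4 exonic fragments all lie on the negative side, and the 18 positive differences are intronic or outside genes.

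The assigned genes with more than 1 listed fragment were erc1b and si:ch211-207c6.10. The fragments of the second are directly adjacent, with 0 bp between them, and lie 56.3 and 56.2 kb from the gene (Zv9, chromosome 5, 43941609 to 43941814 and 43941815 to 43941871). The first spans 206 bp with 20 CpGs and had 88.9% at 100 and 69.4% at 50 µg/L (SE 5.48 points), above the threshold, per the authors' deposited table. The second spans 57 bp with 5 CpGs and rose to 93.0%, against 77.7% at 50 µg/L (SE 1.73 points, p = 0.000311), per the authors' deposited table. Being neighbours, they count as 1 place in the genome. Listed fragments 77.1 kb apart on chromosome 11, in adamts9 and 0.668 kb from BX000993.1, were both higher, by 33.3 and 18.8 points (SE 9.77 and 2.09). By contrast, the uqcrc2a fragment and that in an intron of ENSDARG00000088258, 108 kb apart on chromosome 3, had opposite signs, with -39.3 and 15.6 points.

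Distances to gene ends were set out for higher and lower fragments, as a description with no test. Of the 36 fragments inside genes, 21 were higher and 15 lower. Within 2 kb of either end of the gene lay 0 of the 21 higher fragments and 10 of the 15 lower ones. Those 10 were in KRT78, CR339044.2, CABZ01112647.1, gal3st1, fhl3b, C1H11orf73, nckipsd, rictora, hapln3 and neurod6a, 7 of them on exons, and 6 of the 10 lay within 1 kb. The median distance to the nearer gene end was 26.9 kb for the higher fragments (2.84 to 113 kb) and 1.42 kb for the lower ones (0.0870 to 14.4 kb). The genes differed in size as well, with a median length of 85.8 kb for higher and 17.7 kb for lower fragments, and so did the fragments, at medians of 109 and 74.0 bp. With a limit of 5 kb the counts inside genes were 3 of 21 and 11 of 15. The contrast was seen among fragments inside genes. Outside genes 3 of 43 higher and 1 of 20 lower fragments lay within 2 kb of a gene end, too few to compare. Exon location went with direction too, with 9 of 11 exonic and 6 of 25 intronic fragments lower, beside 35 of all 99. The limit of 2 kb was chosen after the values were seen. For some of the 36 the minimum difference of 15 points fixed the sign. Among these were nckipsd and neurod6a of the lower fragments and atp8b5a, lrp1b and gfra2b of the higher ones. The part of exon location, gene length or fragment length in the contrast was not tested. The end that the authors' deposited table marks as 5′ was the one with the lower coordinate in all 55 fragments so marked, and the 3′ one the higher in all 44, so the marks follow coordinates, and starts of genes cannot be told from their ends.

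**Figure D3:**
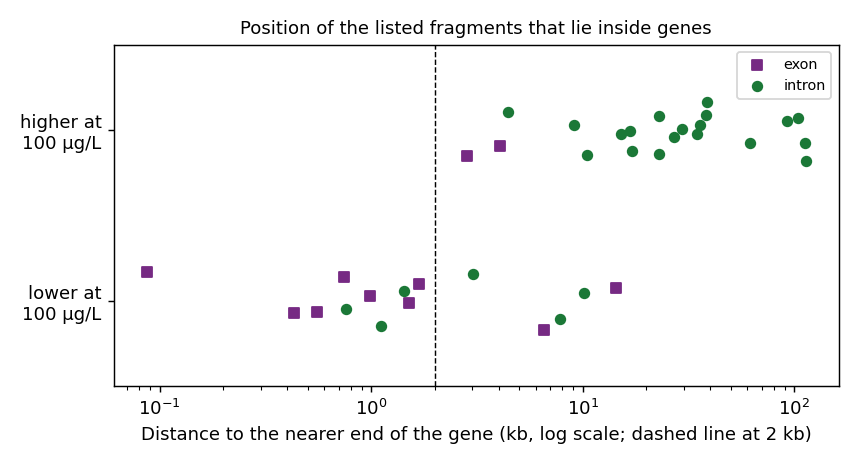
Distance in kb, on a log scale, from each of the 36 fragments inside genes to the nearer end of its gene, by whether the level was higher or lower at 100 than at 50 µg/L. Squares are exonic and circles intronic fragments, and vertical scatter within a row has no meaning. Left of the dashed line at 2 kb lie 10 lower fragments and 0 higher ones.

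Of 63 fragments outside genes, 43 were higher and 20 lower, and only 5 lay within 5 kb of a gene, of which 4 were higher (BX000993.1, znf511, scp2a and BX640398.1) and 1 lower (pkig, a protein kinase A inhibitor gene, 1.40 kb away). The median gap to the assigned gene was 56.2 kb, and 23 fragments lay more than 100 kb away. The single fragment inside a CpG island was on an exon of CABZ01112647.1 and fell to 45.4%, against 60.7% at 50 µg/L (SE 3.55 points), per the authors' deposited table. Within 10 kb of the island that the table gives lay 4 fragments, CABZ01112647.1, zbtb43, ptger4b and nckipsd, all lower at 100 µg/L. Of these, zbtb43, ptger4b and nckipsd stood at 90.9%, 88.8% and 93.4% at 50 µg/L. There the minimum difference of 15 points allows only a lower level, so their shared direction is no result about islands. Higher fragments lay at least 11.3 kb from the island, and at 20 kb the counts were 6 of 64 higher and 7 of 35 lower fragments. Whether distance to the island went with direction was not tested.

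Lengths and levels were set out in the same way. Of 55 fragments over 100 bp, 43 were higher, and of 44 fragments of 100 bp or less, 21 were higher. The CpG density was close, with medians of 5.61 and 6.00 CpGs per 100 bp in higher and lower fragments. Among higher fragments the median level was 72.1% at 100 and 53.6% at 50 µg/L, and among lower ones 54.9% at 100 and 72.1% at 50 µg/L. Each of the 12 fragments at or above 80% at 50 µg/L was lower at 100 µg/L, among them plxnb2b, cybb, nckipsd, ENDOD1 (7 of 15), rangrf and zbtb43, all over 90% at 50 µg/L. Each of the 19 fragments at or above 80% at 100 µg/L was higher than at 50 µg/L. A minimum difference of 15 points leaves no other sign to a fragment above 85%, so these counts follow in part from how the list was made. The same holds below 15%. At 100 µg/L uqcrc2a, neurod6a, CDHR2 (2 of 2) and pkig stood there and could only be lower, and at 50 µg/L spred1 did and could only be higher.

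**Figure D4:**
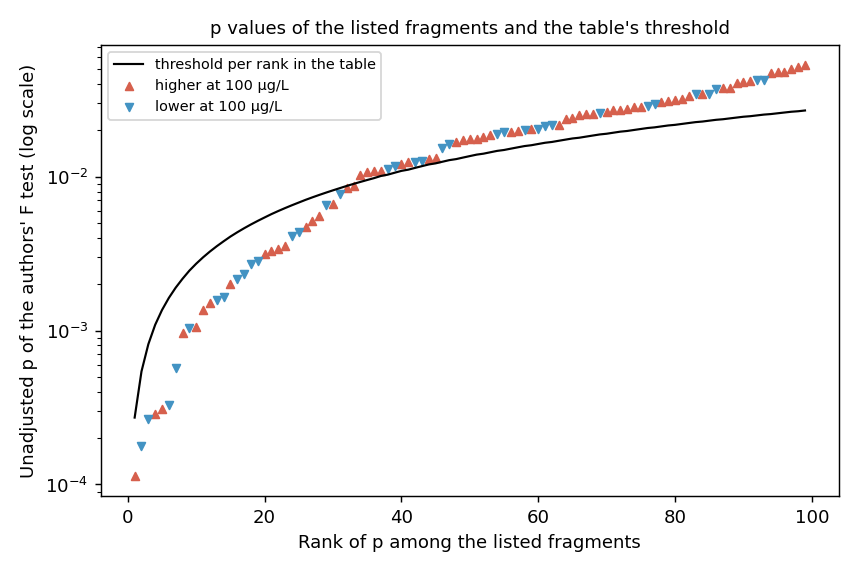
Unadjusted p of the authors' F test, on a log scale, against the rank of p for the 99 fragments, with upward triangles for fragments higher and downward ones for fragments lower at 100 µg/L. The line is the threshold per rank in the table, and the first 33 ranks lie at or under it.

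For 17 of the 99 fragments a control level is also at hand, because the same fragment is listed in a table against control. These tables share pools with the comparison of both exposures, and a fragment in both lists differs at the shared exposure from both other groups by construction, so the levels are given side by side only. In the order control, 50 and 100 µg/L, the authors' deposited tables give 87.1%, 68.9% and 92.3% for atp8b5a and 74.3%, 57.2% and 82.3% for CCBL2 (3 of 4). They give 79.0%, 59.0% and 80.8% for RNF207 (2 of 2), and 88.8%, 69.4% and 88.9% for the longer fragment of si:ch211-207c6.10. At slc22a5 the levels were 56.6%, 30.6% and 48.9%, and at dnajc19 31.7%, 15.9% and 31.4%, per the authors' deposited tables. For adamts9 they were 87.9%, 47.4% and 80.6%, and for hspb1 56.8%, 37.2% and 52.6%, per the authors' deposited tables. With 50 µg/L the highest, nckipsd had 67.8%, 93.4% and 75.7%, ptger4b 71.8%, 88.8% and 65.0%, and fhl3b 53.8%, 70.3% and 55.3%, per the authors' deposited tables. The levels of cybb were 79.4%, 95.7% and 78.5%, and those of neurod6a 9.96%, 25.1% and 9.86%, per the authors' deposited tables. For plxnb2b they were 71.8%, 95.9% and 69.9%, and for C1H11orf73 34.0%, 49.1% and 33.0%, per the authors' deposited tables. For 2 of the 17 the other listed contrast is 100 µg/L against control, and there the 100 µg/L level stands apart, at 58.4%, 57.7% and 77.5% for CABZ01114082.1 and 77.3%, 80.9% and 56.5% for hapln3, per the authors' deposited tables. For the other 82 fragments, zbtb43 and uqcrc2a among them, a control level was not analysed here.

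**Figure D5:**
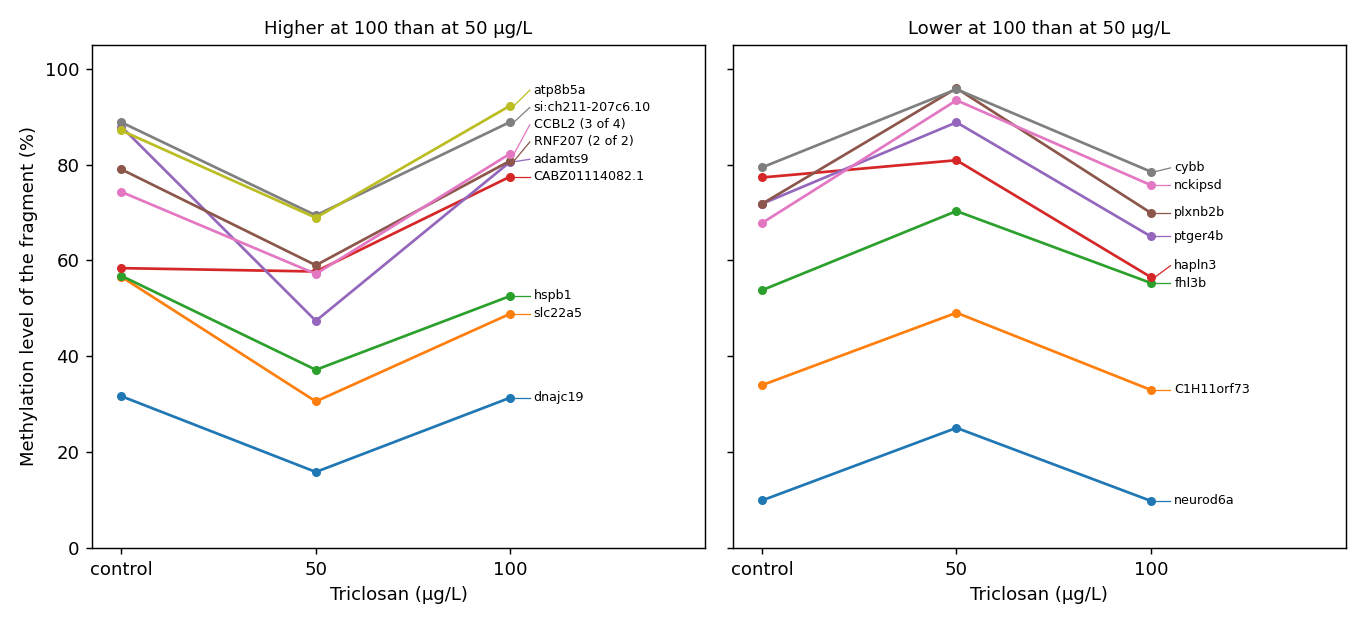
Methylation level in percent at control, 50 and 100 µg/L for the 17 fragments that are also listed in a table against control, split by whether 100 µg/L was higher or lower than 50 µg/L. Lines join the 3 levels of 1 fragment and are labelled with its assigned gene. CABZ01114082.1 and hapln3 are listed for 100 µg/L against control, and the other 15 for 50 µg/L against control.

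Precision varied across the list. The implied SE ran from 1.52 to 9.77 points with a median of 4.85, and it was 3.14 points at the median of the 33 fragments at or under the threshold. Only 3 of the 4 libraries at 50 µg/L were used for 87 fragments, and which one was left out is not given. The 12 fragments with 4 libraries in both groups included spred1, dnajc19 and neurod6a, the 3 of the 12 that passed the threshold, and 9 of them were higher. For 3 fragments, necab2, TRPC7 (1 of 4) and si:ch211-138k19.2, p lay above 0.05.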

How the data were processed

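The authors deposited 3 tables of their own comparisons of bisulfite sequencing libraries, with levels as a fraction per group and unadjusted p-values of an F test, per the file headers. Coordinates are on Zv9, the build named per the submitters' processing notes. Which aligner, methylation caller and coverage minimum were used, and how many fragments were tested, is not given in the sources used here. Depth is therefore unknown, and intervals from reads could not be made. Each fraction is printed as a percentage. The members and gene lists were chosen with earlier results of these data known. Named were the 15 largest differences each way, all fragments at or under the threshold per rank, on an exon, in a CpG island, in a control table, on a gene list, or sharing a gene, plus those said to be picked out after their values were seen.

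Columns were read by position with Python 3.11.15 and pandas 2.3.3, since part of the header lies 1 column left of its values. In all 99 entries the listed difference equalled the gap between levels within 0.011 points and the degrees of freedom equalled the libraries minus 2. The implied SE is the difference divided by the square root of F, and its 95% interval uses the t distribution (scipy 1.17.1), checked on simulated data. Symbol tables of today hold 75 of the 97 gene names, which are spelled as deposited. The labels "shore" of the tables were not used, since all 48 fragments so marked lie over 2 kb from the island. No test per fragment was run, because values per library were not analysed here.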

Additional observations from a re-analysis of the deposited data

How the results depend on the processing

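The share of fragments higher at 100 µg/L was 64.6% (exact 95% interval 54.4% to 74.0%, which covers counting only, since fragments share the same pools). It was 43.5% among the 23 differences of at least 20 points (interval 23.2% to 65.5%). Among the 12 fragments with 4 libraries in both groups it was 75.0% (42.8% to 94.5%). Both of these shares lie outside the interval of the whole list, 54.4% to 74.0%. Their own wider intervals contain 64.6%, but both subsets are part of the list and share its pools. The intervals therefore cannot show whether the shares agree, and the difference between the shares was not tested. The share was 54.5% among the 33 fragments at or under the threshold per rank, 63.9% with 1 fragment per gene name and 64.3% with fragments within 10 kb counted once. The median implied SE was 4.85 points over the list and 3.14 points over those 33 fragments, which a small p selects. The median absolute difference, 17.2 points, stayed between 16 and 18.1 in 3 alternatives, and the share inside genes, 36.4%, between 36.1% and 39.1% in 3. A step-up reading of the threshold also gave 33. No paired analysis was possible because the table gives 1 level per group, although numbers 2 and 4 occur in both groups. For the same reason leaving out each library and another minimum of coverage were not run. What depth limits is unknown.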

Other observations

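The fragments were spread over all 25 chromosomes, with 15 on chromosome 5 (7 higher and 8 lower at 100 µg/L) and 8 on chromosome 16 (4 and 4). On chromosome 18 all 4 were higher, in introns of smad6b, hipk2 and necab2 and 526 kb from ompa, and on chromosome 19 only GATAD2B of 5 was higher. All 4 on chromosome 6 and all 3 on each of chromosomes 4, 14 and 17 were higher too, beside 64.6% of the whole list. How many fragments were assayed per chromosome is not known here. For 8 fragments only 3 libraries were used in both groups, among them adamts9, lrp1b, hipk2, fzd4, uqcrfs1 and TRPC7 (3 of 4), and all 8 were higher at 100 µg/L, against 47 of 79 with 3 libraries at 50 and 4 at 100 µg/L. Of the 8, lrp1b, fzd4, TRPC7 (3 of 4) and si:ch211-138k19.2 stood above 85% at 100 µg/L. There the minimum difference of 15 points allows only a higher level, so the count of 8 follows in part from how the list was made. The difference between these shares was not tested. Among the 36 fragments inside genes, 8 of the 15 lower ones and 4 of the 21 higher ones passed the threshold per rank of p. Over all listed fragments 15 of 35 lower and 18 of 64 higher ones passed, and the 12 of 36 inside genes equal the overall share of 33.3%.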
